A study of Rattus norvegicus with 8 samples.

Results

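The genes examined move calcium and potassium across the membranes of arterial smooth muscle, and were followed in rat thoracic aorta after repeated nitroglycerin dosing. Their 10 members were chosen by symbol: Kcnma1, Kcnmb1, Kcnj8, Abcc9, Cacna1c, Itpr1, Atp2a2, Pln, Ryr2 and Trpc1. Where a symbol had several rows in the deposited gene table, the row of highest mean over the 8 libraries was taken. Of the 10 symbols, 9 had a row among the 27742 rows of the table, and Trpc1 was not analysed here. The 4 nitroglycerin libraries are from male wild-type Sprague Dawley rats given 100 mg/kg of nitroglycerin (glyceryl trinitrate, an organic nitrate vasodilator) under the skin, 3 times a day over 3 days. The 4 control libraries are from rats of the same sex, strain and genotype given the ethanol vehicle on the same schedule. Rats of both groups were 12 weeks old and weighed 180 to 200 g. No label ties a library to a single animal, so a p-value here reflects only library-to-library spread, which may be technical. Total RNA was depleted of ribosomal RNA before sequencing, and the extraction protocol speaks of adipose tissue although the labelled tissue is aorta.

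Contraction of arterial smooth muscle follows cytosolic calcium. Calcium enters through voltage-gated channels and leaves the sarcoplasmic reticulum, the internal store, through inositol trisphosphate receptors and ryanodine receptors, and a pump returns it to the store. Potassium channels hold the membrane negative and so keep the voltage-gated calcium channels closed. Nitric oxide, which nitroglycerin releases in the vessel wall, raises cyclic GMP, and cyclic GMP-dependent kinase is known to act on large-conductance potassium channels, on the inositol trisphosphate receptor complex and on phospholamban.

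None of the 9 genes passed the test between groups, with values either as deposited or after rescaling of the libraries. Abcc9, the sulfonylurea receptor subunit of the vascular ATP-sensitive potassium channel, averaged 29.6 ± 3.47 FPKM with nitroglycerin and 21.0 ± 2.82 FPKM in controls (mean ± SD, n = 4 per group). Pln, the gene of phospholamban, which inhibits the store pump, averaged 11.2 ± 3.9 FPKM with nitroglycerin and 6.34 ± 2.53 FPKM in controls. Atp2a2, the gene of that pump, averaged 42.8 ± 7.63 FPKM with nitroglycerin and 51.2 ± 9.67 FPKM in controls. FPKM, the fragments of a gene scaled by transcript length and by the mapped total, is a value per length that is relative within a library. Differences are on the log2(FPKM + 1) scale, nitroglycerin minus control, tested with limma over all 12977 rows that reached 1 FPKM in at least 4 libraries, at a Benjamini-Hochberg adjusted p under 0.05.

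The libraries differed in composition, which bears on every level below. The 100 rows of highest mean took 47.4 to 50.4% of the summed FPKM in nitroglycerin libraries and 51.7 to 71.4% in controls, and the median row had a log2 difference of 0.30. Median-of-ratios rescaling, with factors of 1.06 to 1.2 in nitroglycerin libraries and 0.734 to 0.986 in controls, brought that median to 0.012. Each difference is therefore given as deposited and after rescaling. As deposited, 1.29% of the 12977 rows were called higher and 0.0616% lower; after rescaling these shares were 0.0308% and 0.1%. Aligned sequence was 6.77 to 8.39 Gb per nitroglycerin library and 7.48 to 8.86 Gb per control library.

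Promoter sequences are shown for 2 functional pairs among the members, the pore and regulatory subunits of the ATP-sensitive potassium channel and the store pump with its inhibitor. Kcnj8 and Abcc9 are next to each other among the protein-coding genes of chromosome 4 in GRCr8, on the same strand. The windows are RefSeq sequences of build GRCr8, from 250 bases before to 50 bases after each gene start, 5′ to 3′ on the gene's strand. Capitals mark matches on either strand to the motifs searched, which were the CArG box, the MEF2 site, the TATA box TATAAA, the GC box GGGCGG, the cyclic AMP response element TGACGTCA and the NFAT core GGAAAA.
Abcc9, chr4:177386299-177386598, minus strand: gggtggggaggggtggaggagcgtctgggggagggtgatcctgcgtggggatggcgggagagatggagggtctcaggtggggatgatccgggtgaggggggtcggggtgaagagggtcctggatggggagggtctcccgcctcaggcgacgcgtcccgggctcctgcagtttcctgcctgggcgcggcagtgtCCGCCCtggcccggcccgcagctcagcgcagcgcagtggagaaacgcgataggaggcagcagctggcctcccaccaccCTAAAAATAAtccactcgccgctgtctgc
Kcnj8, chr4:177246499-177246798, minus strand: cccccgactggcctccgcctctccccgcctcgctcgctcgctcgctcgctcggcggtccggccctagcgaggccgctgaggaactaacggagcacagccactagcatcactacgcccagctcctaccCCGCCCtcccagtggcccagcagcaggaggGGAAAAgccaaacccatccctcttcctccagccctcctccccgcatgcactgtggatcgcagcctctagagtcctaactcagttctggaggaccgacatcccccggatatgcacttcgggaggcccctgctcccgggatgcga
Atp2a2, chr12:39733269-39733568, plus strand: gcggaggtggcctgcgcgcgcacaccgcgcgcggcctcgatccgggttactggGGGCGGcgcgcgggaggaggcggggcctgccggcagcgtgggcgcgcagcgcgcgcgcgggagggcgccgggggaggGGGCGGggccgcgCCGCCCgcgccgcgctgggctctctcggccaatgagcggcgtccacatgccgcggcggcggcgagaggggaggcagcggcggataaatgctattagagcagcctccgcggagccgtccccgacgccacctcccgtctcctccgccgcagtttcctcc
Pln, chr20:33172244-33172543, plus strand: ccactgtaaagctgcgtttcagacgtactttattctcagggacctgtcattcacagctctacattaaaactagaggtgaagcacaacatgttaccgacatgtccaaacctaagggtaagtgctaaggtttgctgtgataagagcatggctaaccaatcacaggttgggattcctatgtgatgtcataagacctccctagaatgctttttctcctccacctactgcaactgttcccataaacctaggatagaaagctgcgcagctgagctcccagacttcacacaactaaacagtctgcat
The Abcc9 window held an MEF2 site at bases 272 to 281 of the window, counted from 1 at its 5′ end, and GGGCGG at bases 194 to 199. An MEF2 site was found in 3.29% of all 33469 RefSeq windows of this length, and in no other member. GGGCGG was found in 33.1% of all windows and in 5 of the 9 member windows (Abcc9, Atp2a2, Kcnj8, Kcnma1 and Ryr2), some of its matches in Kcnma1 and Ryr2 overlapping one another. GGAAAA was found in 24.7% of windows and in those of Kcnj8, at bases 158 to 163, and Kcnmb1. The CArG box (1.64% of windows), TATAAA (14.2%) and TGACGTCA (1.83%) were in none of the 9, and the Pln window held no match. GC content was 45% in the Pln window and 79% in that of Atp2a2. These matches describe letters only.

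The levels covered a range per length. Averaged over the 8 libraries, Atp2a2 stood highest at 47.0 FPKM and Abcc9 next at 25.3 FPKM. Pln followed at 8.77 FPKM, the Kcnma1 row chosen by the rule at 7.94, Itpr1 at 7.76, Kcnmb1 at 4.25, Kcnj8 at 3.67, Cacna1c at 3.45 and Ryr2 at 3.19 FPKM. The values of Atp2a2 and Abcc9 did not overlap with each other or with those of the genes below them. From Pln down, neighbouring genes in this order overlapped in their library values.

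**Figure D1:**
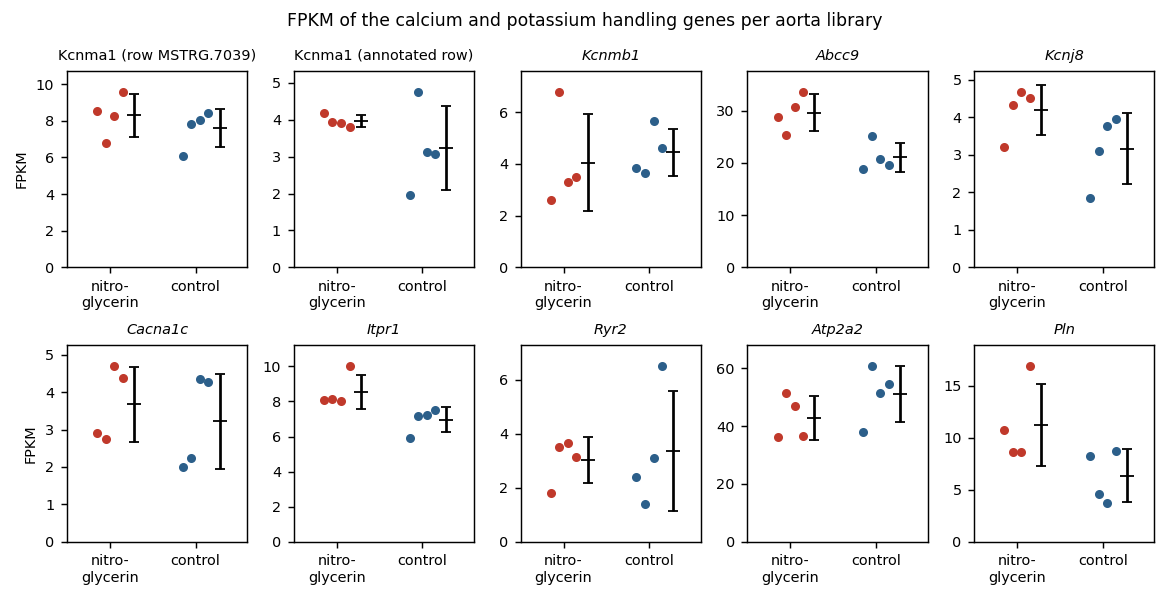
Each panel plots the FPKM of 1 gene in each library, nitroglycerin on the left and control on the right. Points are libraries in replicate order and the bar beside them is the mean ± SD (n = 4 per group). Only Abcc9 and Itpr1 have groups that do not overlap as deposited.

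Large-conductance calcium-activated potassium (BK) channels are built from the pore-forming subunit of Kcnma1 and, in smooth muscle, the beta1 subunit of Kcnmb1, which raises the channel's calcium sensitivity. The rule chose for Kcnma1 the row MSTRG.7039, an assembled locus with no annotated transcript. It read 8.54, 6.78, 8.26 and 9.58 FPKM in nitroglycerin replicates 1 to 4 and 6.07, 7.84, 8.03 and 8.41 FPKM in control replicates 1 to 4. The groups overlapped, with a log2 difference of 0.11 as deposited (SE 0.14, limma adjusted p = 0.565) and -0.23 after rescaling (SE 0.09, adjusted p = 0.364), so the sign turned with the scaling. The annotated Kcnma1 row, named in addition after its values were seen, read 4.20, 3.93, 3.92 and 3.8 FPKM with nitroglycerin and 1.97, 4.76, 3.14 and 3.08 FPKM in controls. Its nitroglycerin values lay close together inside the control range. Its log2 difference was 0.27 (95% interval -0.14 to 0.68, limma adjusted p = 0.301) and -0.028 after rescaling (-0.34 to 0.28, adjusted p = 0.961).

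Kcnmb1 read 2.62, 6.79, 3.31 and 3.48 FPKM with nitroglycerin and 3.85, 3.66, 5.67 and 4.6 FPKM in controls. Nitroglycerin replicate 2 was the highest of all 8 libraries, and the other 3 nitroglycerin libraries were below every control. The log2 difference was -0.16 as deposited (95% interval -0.69 to 0.37, limma adjusted p = 0.631) and -0.47 after rescaling (-1.06 to 0.13, adjusted p = 0.520).

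The vascular ATP-sensitive potassium channel, which opens when cellular ATP falls and is the target of potassium channel openers, joins the pore subunit of Kcnj8 to the receptor of Abcc9. Abcc9 read 28.8, 25.3, 30.7 and 33.6 FPKM with nitroglycerin and 18.8, 25.1, 20.7 and 19.5 FPKM in controls. Every nitroglycerin library stood above every control, although nitroglycerin replicate 2 and control replicate 2 almost met. The log2 difference was 0.48 (SE 0.14, 95% interval 0.15 to 0.80, unadjusted p = 0.00905, limma adjusted p = 0.0729). After rescaling the groups overlapped and the difference was 0.10 (95% interval -0.11 to 0.31, limma adjusted p = 0.705). Weighting the libraries by their fit (limma array weights) called Abcc9 as deposited, with an adjusted p of 0.0353. The weighted fit called 1936 genes over the table, 1883 higher and 53 lower, against 175 without weights. The call is therefore not particular to Abcc9. Over the other alternatives applied to the deposited values, the adjusted p of Abcc9 ran from 0.0547 to 0.705.

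Kcnj8 read 3.21, 4.34, 4.68 and 4.51 FPKM with nitroglycerin and 1.85, 3.10, 3.77 and 3.94 FPKM in controls. The lowest nitroglycerin library lay among the controls. Its log2 difference of 0.34 (95% interval -0.09 to 0.77, limma adjusted p = 0.221) stood near the median row, and it was 0.041 after rescaling (-0.33 to 0.41, adjusted p = 0.953).

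Cacna1c encodes the pore of the L-type calcium channel, the main voltage-gated route of calcium entry in arterial muscle. It read 2.9, 2.74, 4.70 and 4.38 FPKM with nitroglycerin and 1.99, 2.25, 4.37 and 4.27 FPKM in controls. In both groups replicates 1 and 2 were low and replicates 3 and 4 high, so the spread within a group exceeded the distance between groups. The log2 difference was 0.17 (95% interval -0.37 to 0.71, limma adjusted p = 0.600) and -0.12 after rescaling (-0.63 to 0.39, adjusted p = 0.870).

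Itpr1 encodes the type 1 inositol trisphosphate receptor, the store channel opened by agonists. It read 8.08, 8.13, 8.03 and 10.0 FPKM with nitroglycerin and 5.94, 7.16, 7.21 and 7.54 FPKM in controls. The groups did not overlap as deposited, and nitroglycerin replicate 4 stood apart from the other 3 of its group. The log2 difference was 0.26 (95% interval -0.01 to 0.54, limma adjusted p = 0.154), close to the median row, and -0.080 after rescaling (-0.28 to 0.12, adjusted p = 0.760), where the groups overlapped. A second row with this symbol, the assembled locus MSTRG.14980, was under the filter on low values.

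Ryr2 encodes the cardiac-type ryanodine receptor, whose openings give the calcium sparks that activate BK channels in arterial muscle. It read 1.79, 3.51, 3.66 and 3.15 FPKM with nitroglycerin and 2.40, 1.41, 3.11 and 6.52 FPKM in controls. Control replicate 4 was the highest library and control replicate 2 the lowest. The log2 difference was -0.014 (95% interval -0.75 to 0.72, limma adjusted p = 0.976) and -0.30 after rescaling (-1.10 to 0.49, adjusted p = 0.778). Without control replicate 4 the deposited difference was 0.29 (limma adjusted p = 0.407). That library also had the highest summed FPKM of 8 cardiac muscle markers, 9.73 against 0.772 to 2.86 in the other 7 libraries, of which Actc1, cardiac actin, gave 9.37 FPKM. The other 7 cardiac markers, among them Myh6, Tnnt2 and Nppa, were under 1 FPKM in every library.

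Atp2a2 encodes SERCA2, the pump that refills the store. It read 36.3, 51.5, 47.0 and 36.4 FPKM in nitroglycerin replicates 1 to 4 and 37.9, 60.9, 51.7 and 54.5 FPKM in control replicates 1 to 4. As deposited the groups overlapped, with a log2 difference of -0.25 (95% interval -0.68 to 0.18, unadjusted p = 0.222, limma adjusted p = 0.348), against 0.30 for the median row. After rescaling all 4 nitroglycerin libraries, at 31.7, 48.7, 39.95 and 30.3 rescaled FPKM, lay below all controls, at 51.7, 61.7, 57.4 and 60.9. The rescaled difference was -0.63 (SE 0.16, 95% interval -1.0 to -0.26, unadjusted p = 0.00407), the largest in size among the members, and did not pass over all rows (limma adjusted p = 0.188). Over the alternatives that kept this rescaling it stayed between -0.76 and -0.54, with adjusted p from 0.0840 to 0.404. Quantile scaling in its place gave a smaller difference of -0.46 (limma adjusted p = 0.292).

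Smooth muscle markers are given beside Atp2a2 as measured, with 0 of the 7 tested called. Their summed FPKM was 1330.4, 2714, 2097 and 1616 in nitroglycerin replicates 1 to 4 and 2172, 2404, 2635 and 2829 in control replicates 1 to 4. Within the nitroglycerin group the order of the sum was that of Atp2a2, although Atp2a2 was almost equal in replicates 1 and 4 (36.3 and 36.4 FPKM). Within the controls the orders differed, the sum being highest in replicate 4 and Atp2a2 in replicate 2. Myh11, smooth muscle myosin heavy chain, averaged 130 ± 21.5 FPKM with nitroglycerin and 151 ± 12.7 FPKM in controls, a log2 difference of -0.23 as deposited and -0.62 after rescaling (limma adjusted p = 0.311 and 0.177), and was highest of its group in nitroglycerin replicate 4, where Atp2a2 was low. The markers did not all lie the same way, and 3 of the 7 had log2 differences above 0 as deposited and 1 after rescaling. At an unadjusted limma p under 0.05, 2 were lower and 1 higher as deposited, where all rows gave 1.02% and 34.1%. After rescaling 4 were lower and 1 higher, where all rows gave 6.44% and 5.5%. Myh11, Cnn1 and Myl9 were lower without overlap after rescaling (4.45% of all rows). Cnn1 had log2 differences of -0.74 as deposited and -1.12 after rescaling (limma adjusted p = 0.131 and 0.242). Lmod1, leiomodin 1 of the smooth muscle contractile apparatus, averaged 19.1 ± 4.75 FPKM with nitroglycerin and 10.4 ± 1.1 FPKM in controls without overlap (log2 difference 0.79, unadjusted p = 0.00261, limma adjusted p = 0.0598), and was 0.43 after rescaling with an adjusted p of 0.382 and overlap. Smtn (0.25) and Myocd (0.17) were above 0 as deposited and below 0 after rescaling. Myl9, a myosin light chain, averaged 92.7 ± 27.6 FPKM with nitroglycerin and 152 ± 13.6 FPKM in controls, without overlap under either scaling (log2 difference -0.75, limma adjusted p = 0.0664), and was -1.13 after rescaling with an adjusted p of 0.0949. The summed level is mostly Acta2, smooth muscle actin, at 1602 ± 585 FPKM with nitroglycerin and 2075 ± 270 FPKM in controls. Lmod1, Myl9, Cnn1 and Acta2 were picked out after their values were seen. Divided by Myh11 in the same library, Atp2a2 was 0.337 ± 0.0774 with nitroglycerin and 0.340 ± 0.0693 in controls (mean ± SD, n = 4 per group), given with no test because the divisor was chosen after values were seen. No other divisor is given, although Lmod1 and Myl9 lay in opposite directions between groups, so this ratio holds for Myh11 only. In whole tissue, a different number of cells of a type and a different amount of RNA per cell cannot be told apart.

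Pln read 10.7, 8.64, 8.61 and 16.9 FPKM with nitroglycerin and 8.25, 4.62, 3.74 and 8.76 FPKM in controls. Control replicate 4 lay just above the 2 lowest nitroglycerin libraries, so the groups overlapped. The log2 difference was 0.75 (SE 0.29, 95% interval 0.10 to 1.40, unadjusted p = 0.0283, limma adjusted p = 0.108), above the 0.30 of the median row, and 0.40 after rescaling (-0.33 to 1.14, adjusted p = 0.659). Per Myh11, Pln was 0.0857 ± 0.0196 with nitroglycerin and 0.0427 ± 0.0182 in controls, with no overlap. Per Myh11, Abcc9, Kcnj8 and Itpr1 did not overlap either and were higher with nitroglycerin, making 4 of 9 members and 0 lower. Of all 12977 rows, 35.8% were higher without overlap on that scale and 0.116% lower, so this share is near the background.

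**Figure D2:**
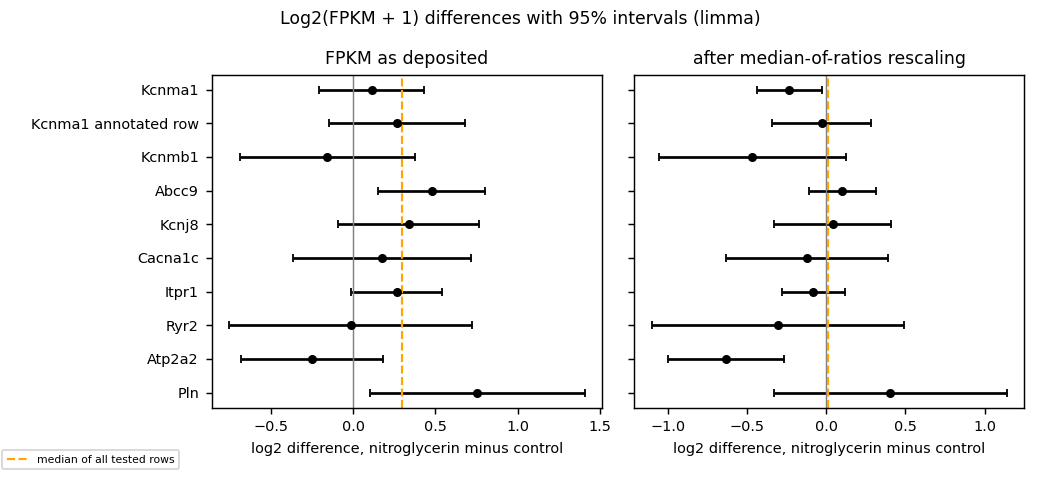
Points are log2 differences, nitroglycerin minus control, of log2(FPKM + 1) with 95% intervals from limma (n = 4 per group), as deposited (left) and after rescaling (right). The dashed line is the median of all 12977 rows, 0.30 and 0.012. Most members sit left of the dashed line, and Abcc9, Kcnj8 and Pln are to its right in both panels.

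Across the 9 members, 6 log2 differences were above 0 as deposited and the median was 0.17, while 86.6% of all rows were above 0 with a median of 0.30. After rescaling 3 were above 0 and the median was -0.12, against 52.4% of all rows and a median of 0.012. No member was called higher or lower by limma under either scaling. At an unadjusted p under 0.05, 2 were higher as deposited (Abcc9 and Pln) and 0 lower, where all rows gave 34.1% and 1.02%. After rescaling 0 were higher and 2 lower (Atp2a2 and the Kcnma1 row of the rule), where all rows gave 5.5% and 6.44%. Groups without overlap and higher with nitroglycerin were found for 2 members as deposited (24.2% of all rows) and 0 after rescaling (3.78% of all rows). Groups without overlap and lower with nitroglycerin were found for 0 members as deposited (0.478% of all rows) and 1 after rescaling (4.45% of all rows).

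Ratios between members of the same library do not depend on how libraries are scaled. Of the 6 ratios laid out, 5 could be computed without Trpc1. The ratio of Pln to Atp2a2, inhibitor to pump, was 0.294, 0.168, 0.183 and 0.463 with nitroglycerin and 0.217, 0.0759, 0.0724 and 0.161 in controls. All nitroglycerin libraries were above the 3 lowest controls, and control replicate 1 lay among them. The difference in log2 ratio was 1.11 (exact permutation p = 0.114 on both sides, and 0.571 after Benjamini-Hochberg adjustment over 5 ratios), where the smallest p that 4 against 4 allows is 0.0286. In none of the alternatives did its sign turn, with values from 0.82 to 1.41.

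The ratio of Kcnmb1 to the Kcnma1 row of the rule was 0.307, 1.00, 0.401 and 0.363 with nitroglycerin and 0.634, 0.467, 0.706 and 0.547 in controls. Nitroglycerin replicate 2 was above every control and the other 3 below every control (exact permutation p = 0.457, adjusted p = 0.886, n = 4 per group). With the annotated Kcnma1 row the mean ratio was 1.03 ± 0.482 with nitroglycerin and 1.5 ± 0.526 in controls (exact permutation p = 0.286, n = 4 per group). The ratio of Abcc9 to Kcnj8 averaged 7.21 ± 1.35 with nitroglycerin and 7.18 ± 2.43 in controls, a difference of 0.049 on the log2 scale (exact permutation p = 0.886, n = 4 per group). That of Itpr1 to Ryr2 averaged 3.05 ± 1.07 with nitroglycerin and 2.76 ± 1.66 in controls (exact permutation p = 0.657, n = 4 per group). That of Cacna1c to Kcnma1 averaged 0.442 ± 0.0971 with nitroglycerin and 0.417 ± 0.128 in controls (exact permutation p = 0.714, n = 4 per group). The last 3 ratios overlapped broadly between groups, and their adjusted p was 0.886 each.

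**Figure D3:**
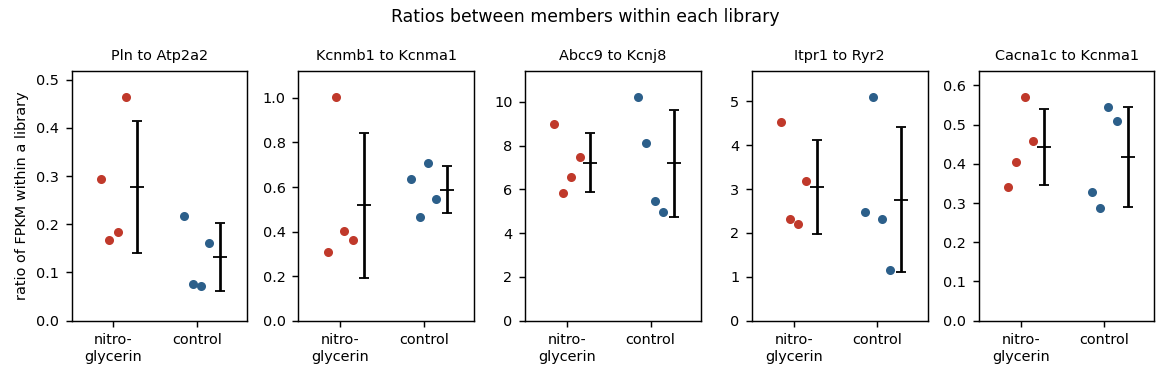
Each panel plots the ratio of the FPKM of 2 members within each library, nitroglycerin left and control right, with the mean ± SD beside the points (n = 4 per group). The groups overlap in all 5 panels, and nitroglycerin replicate 2 stands apart at 1.00 in the panel of Kcnmb1 to Kcnma1.

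Kcnma1 was unusual among the members in the number of rows that carried its symbol, 10, of which 9 held only assembled transcripts. The 9 averaged from 1.33 to 7.94 FPKM over the libraries. In all 9, nitroglycerin replicate 2 was the lowest of its group, nitroglycerin replicate 4 the highest of its group and control replicate 1 the lowest of the controls. In the annotated row nitroglycerin replicate 2 lay in the middle of its group and nitroglycerin replicate 4 was its lowest. Control replicate 1 was the lowest control there too, as in 59.4% of the 10104 annotated rows tested. Over all 2873 assembled rows tested, nitroglycerin replicate 2 was the lowest of its group in 36.4%, nitroglycerin replicate 4 the highest in 44.5% and control replicate 1 the lowest in 48.5%. The 9 rows share 1 gene and are not independent of each other. Their log2 differences ran from -0.044 to 0.38 as deposited and from -0.25 to 0.15 after rescaling, and none was called (lowest limma adjusted p = 0.184 and 0.364).

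Of the assembled loci, 3 of Kcnma1 and 1 of Itpr1 also stood in the lncRNA table, as 6 transcripts of the intronic class. The table names no build, and its coordinates are given as they stand. MSTRG.7043.1 is a single-exon transcript at chromosome 15, 563142 to 582881, on the plus strand, within a Kcnma1 intron. It read 6.32, 2.98, 6.21 and 10.8 FPKM with nitroglycerin and 2.00, 4.31, 7.99 and 5.64 FPKM in controls, so the groups overlapped (limma adjusted p = 0.774). MSTRG.7045.1, also single-exon and on the plus strand, lies at chromosome 15, 601407 to 639053, and read 2.83, 1.57, 4.08 and 4.32 FPKM with nitroglycerin and 0.546, 4.02, 5.19 and 4.20 FPKM in controls. MSTRG.14980.1, with 2 exons on the minus strand at chromosome 4, 140326836 to 140329474, within an Itpr1 intron, averaged 0.83 ± 0.677 FPKM with nitroglycerin and 0.349 ± 0.234 FPKM in controls. Of the 6 transcripts 5 passed the filter on low values and none was called by limma, with unadjusted p from 0.250 to 0.922 and a lowest adjusted p of 0.665, where 0.0418% of all 2390 lncRNA transcripts tested were called.

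**Figure D4:**
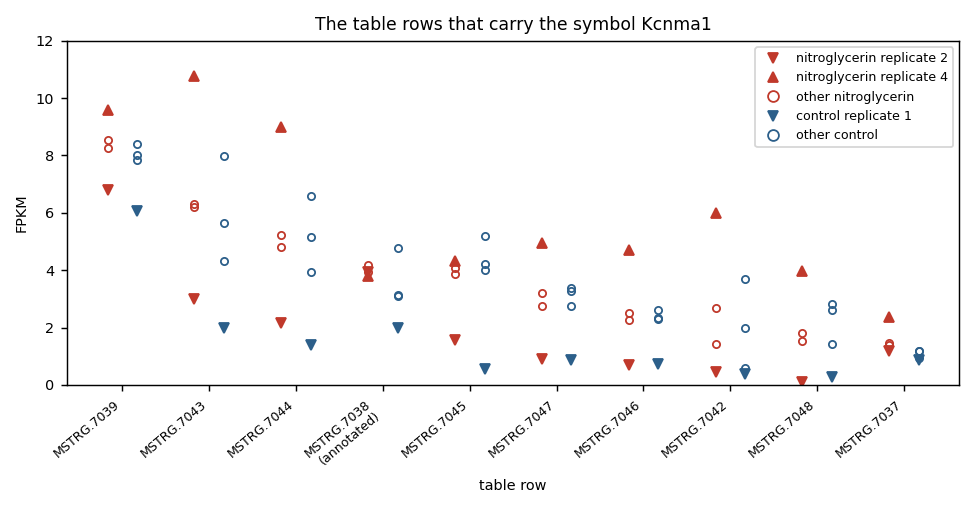
FPKM of the 10 rows that carry the symbol Kcnma1, ordered by mean, with nitroglycerin libraries (red, left) and controls (blue, right) in each row. Filled triangles mark nitroglycerin replicates 2 and 4 and control replicate 1, which stand at the ends of their groups in the 9 assembled rows. In the annotated row nitroglycerin replicates 2 and 4 do not take those places, while control replicate 1 is again the lowest control.

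Beyond the members, 107 other genes of calcium and potassium handling were listed by role, of which 97 had a row and 50 passed the filter on low values. None of the 50 was called by limma under either scaling. At an unadjusted p under 0.05, 14 were higher and 1 lower as deposited, where all rows gave 34.1% and 1.02%. After rescaling 0 were higher and 6 lower, where all rows gave 5.5% and 6.44%. As deposited 37 of the 50 log2 differences were above 0 with a median of 0.20, a smaller share than the 86.6% of all rows, whose median was 0.30. After rescaling 18 were above 0 with a median of -0.085, against 52.4% of all rows and a median of 0.012. Groups without overlap were found for 6 of the 50 as deposited, all higher (24.2% of all rows), and for 5 after rescaling, all lower (4.45% of all rows).

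Among potassium channels, Kcnj2, an inward rectifier gene of the lists, had no row under its symbol and was not analysed here. The other BK subunits and the remaining inward rectifier genes were all under the filter. The highest of these were Kcnmb4, a neuronal beta subunit of BK channels, at 0.301 ± 0.12 FPKM with nitroglycerin and 0.164 ± 0.083 FPKM in controls, and Abcc8, the sulfonylurea receptor of pancreatic beta cells, at 0.397 ± 0.063 FPKM with nitroglycerin and 0.642 ± 0.081 FPKM in controls. Both lay far below Kcnmb1 and Abcc9 per length, and the Abcc8 groups did not overlap. Of 20 voltage-gated potassium genes 6 were tested, and 4 were above 0 as deposited. Kcnh2, whose product carries a rapid delayed rectifier current, had the highest level at 9.89 ± 1.43 FPKM with nitroglycerin and 8.56 ± 2.13 FPKM in controls. Kcns3, a silent subunit that modifies other voltage-gated channels, had the lowest p of this list, at 3.96 ± 0.721 FPKM with nitroglycerin and 2.60 ± 0.781 FPKM in controls (log2 difference 0.48, limma adjusted p = 0.104, and 0.20 after rescaling with an adjusted p of 0.614). Kcnab1, an auxiliary beta subunit, had the lowest p after rescaling (log2 difference -0.38, limma adjusted p = 0.450). Of 9 two-pore and calcium-activated genes 3 were tested, all above 0 as deposited. Kcnk3, a two-pore background channel known as TASK-1, averaged 1.28 ± 0.117 FPKM with nitroglycerin and 0.697 ± 0.266 FPKM in controls (limma adjusted p = 0.111, and 0.513 after rescaling), and Kcnk6, the highest of these, 1.70 ± 0.351 FPKM with nitroglycerin and 1.36 ± 0.251 FPKM in controls.

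Of 11 other voltage-gated calcium channel subunits 5 were tested, and none was called, with a median log2 difference of -0.10 as deposited and -0.41 after rescaling. Cacna1h and Cacna1g encode T-type channels, which open at more negative voltages than the L-type channel. Cacna1h averaged 1.25 ± 0.611 FPKM with nitroglycerin and 2.34 ± 0.965 FPKM in controls (log2 difference -0.56, limma adjusted p = 0.141, and -0.80 after rescaling with an adjusted p of 0.247). Cacna1g averaged 1.87 ± 0.129 FPKM with nitroglycerin and 2.27 ± 0.71 FPKM in controls (log2 difference -0.16, limma adjusted p = 0.448, and -0.42 after rescaling with an adjusted p of 0.227). Cacna2d1, an auxiliary subunit and the highest of the list, averaged 4.34 ± 0.963 FPKM with nitroglycerin and 4.15 ± 1.33 FPKM in controls. None of these differences passed the test.

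Of 11 other genes of store release 7 were tested, with a median log2 difference of 0.14 as deposited and -0.24 after rescaling. Itpr2, the type 2 receptor, averaged 3.44 ± 1.09 FPKM with nitroglycerin and 2.00 ± 0.532 FPKM in controls (log2 difference 0.55, limma adjusted p = 0.0933, and 0.27 after rescaling with an adjusted p of 0.621). Mrvi1, whose product IRAG links cyclic GMP-dependent kinase to the type 1 receptor, averaged 8.95 ± 2.46 FPKM with nitroglycerin and 10.9 ± 2.03 FPKM in controls (log2 difference -0.27, limma adjusted p = 0.348, and -0.62 after rescaling with an adjusted p of 0.266). Calr, calreticulin, a calcium-binding protein of the store, averaged 92.6 ± 7.92 FPKM with nitroglycerin and 83.9 ± 9.26 FPKM in controls. The signs of Mrvi1 and Itpr2 were opposite under both scalings, and the difference between them was not tested.

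Of 13 other pump, exchanger and mitochondrial uptake genes 9 were tested, with medians of 0.32 and 0.037. Slc8b1, a mitochondrial sodium-calcium exchanger, averaged 6.25 ± 1.06 FPKM with nitroglycerin and 4.40 ± 0.61 FPKM in controls (limma adjusted p = 0.0864, and 0.827 after rescaling). The row named Mcu, the mitochondrial calcium uniporter, which holds no annotated transcript, averaged 6.83 ± 0.842 FPKM with nitroglycerin and 7.51 ± 1.54 FPKM in controls (log2 difference -0.11, and -0.45 after rescaling, limma adjusted p = 0.174). Atp2b4, a plasma membrane calcium pump, averaged 7.79 ± 0.93 FPKM with nitroglycerin and 7.41 ± 1.71 FPKM in controls. Here too the calls were none, and the signs of the Mcu row and Slc8b1 differed.

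Of 17 store-operated, TRP and stretch channel genes 11 were tested, with medians of 0.26 and -0.020. Pkd1, polycystin 1, was the most abundant and had the lowest p, at 32.0 ± 1.7 FPKM with nitroglycerin and 24.3 ± 1.59 FPKM in controls (log2 difference 0.38, limma adjusted p = 0.0731, and 0.0063 after rescaling with an adjusted p of 0.989). Trpv2, a stretch-sensitive channel, had the lowest p after rescaling, at 1.16 ± 0.191 FPKM with nitroglycerin and 1.3 ± 0.397 FPKM in controls (limma adjusted p = 0.432). Of 15 calcium sensor and calcineurin-NFAT genes 9 were tested, with medians of 0.31 and 0.018. Nfatc3, a transcription factor that calcineurin activates, averaged 7.09 ± 0.343 FPKM with nitroglycerin and 5.19 ± 0.644 FPKM in controls (log2 difference 0.39, limma adjusted p = 0.0691, and 0.058 after rescaling with an adjusted p of 0.833). Calm2, a calmodulin gene, averaged 50.1 ± 5.41 FPKM with nitroglycerin and 40.4 ± 6.88 FPKM in controls, and Camk2d, a calmodulin-dependent kinase, 6.27 ± 0.979 FPKM with nitroglycerin and 6.51 ± 2.15 FPKM in controls. Pkd1 and Nfatc3 had groups without overlap as deposited and not after rescaling.

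**Figure D5:**
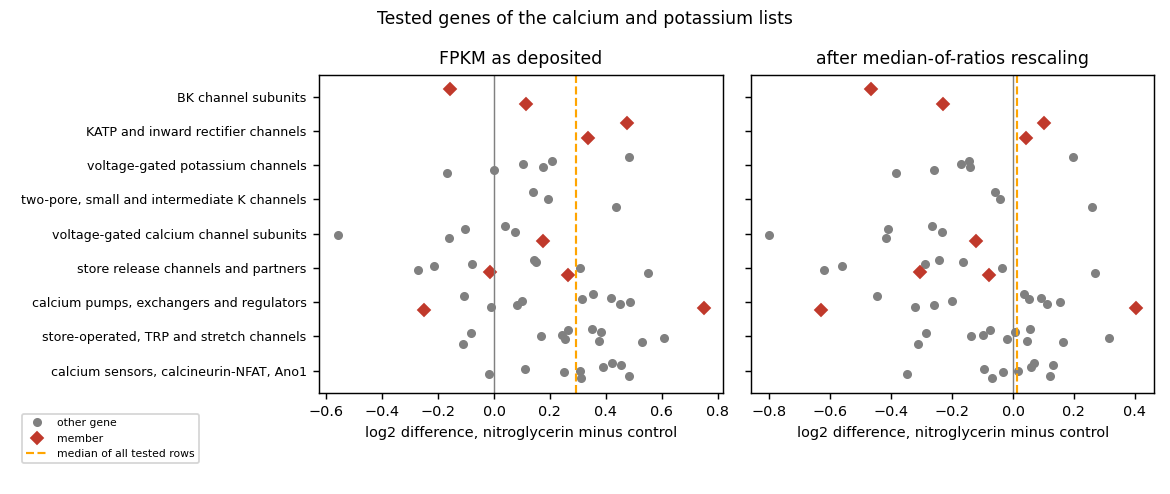
Log2 differences, nitroglycerin minus control, of the tested genes of each list as deposited (left) and after rescaling (right), with members as red diamonds and other genes as grey points. The dashed line is the median of all rows. As deposited 37 of the 50 other genes lie above 0 (86.6% of all rows), and after rescaling 18 do (52.4% of all rows).

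Markers of other cells are given as sums of FPKM as deposited, with the rescaled layout where it differs. The pericyte list, which matters because pericytes also express Kcnj8 and Abcc9, summed to 98.8 to 123 FPKM with nitroglycerin and 94.2 to 116 FPKM in controls, with the pericyte marker Higd1b under 1 FPKM in every library and none of its 5 tested genes called. Macrophage markers summed to 29.1 to 37.7 FPKM with nitroglycerin and 21.3 to 26.5 FPKM in controls, with 1 of 5 tested genes called higher as deposited and 0 after rescaling. Endothelial markers summed to 45.9 to 55.8 FPKM with nitroglycerin and 25.0 to 49.1 FPKM in controls, with 1 of 6 called higher as deposited and 0 after rescaling. Macrophage sums did not overlap between groups as deposited but did after rescaling, at 27.6 to 32.9 with nitroglycerin and 23.7 to 29.0 in controls, and pericyte and endothelial sums overlapped under both scalings. Fibroblast markers summed to 1403 to 1526 FPKM with nitroglycerin and 1698 to 2469 FPKM in controls, with 0 of 5 called and no overlap under either scaling. That sum is mostly Col1a1, the collagen I alpha 1 chain, at 1151 ± 33.5 FPKM with nitroglycerin and 1779 ± 302 FPKM in controls (log2 difference -0.61, limma adjusted p = 0.0697). By gene 3 of the 5 fibroblast markers were above 0 under both scalings, with a median of 0.39 as deposited and 0.019 after rescaling. Among them Dcn, decorin, averaged 128 ± 13.2 FPKM with nitroglycerin and 75.5 ± 26.3 FPKM in controls (log2 difference 0.80, limma adjusted p = 0.0673). Col1a1 and Dcn were also picked out after their values were seen. White adipocyte markers summed to 105 FPKM in nitroglycerin replicate 1, to 12.6 to 16.7 FPKM in the other nitroglycerin libraries and to 6.45 to 19.5 FPKM in controls, and brown adipocyte markers to 4.24 to 24.3 FPKM with nitroglycerin and 5.13 to 11.5 FPKM in controls. Skeletal muscle markers summed to 15.7 to 23.9 FPKM with nitroglycerin and 23.0 to 33.4 FPKM in controls, with 1 of 5 called lower under both scalings and no overlap of the sums after rescaling, and Schwann cell and neuron markers to 1.92 to 5.14 FPKM with nitroglycerin and 1.29 to 2.09 FPKM in controls. No gene with a row in the 10 marker lists was at 0 in all 8 libraries. The smooth muscle, endothelial, fibroblast and macrophage lists each had 1 gene without a row, and the skeletal muscle list had 2. The sums leave these genes out. None of the 3 white adipocyte, 1 brown adipocyte and 1 cardiac genes tested was called, and no Schwann cell or neuron gene passed the filter on low values. The part of these cell types in the members' values was not tested.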

How the data were processed

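RNA of rat thoracic aorta had been sequenced in 8 libraries. Tools named in the submitters' processing notes, without their roles, are Bowtie 0.12.2, HISAT2 2.0 and StringTie 1.3.0, and builds Rnor_6.0 and mm8. The gene table holds FPKM by library, per the file headers. The lncRNA table holds FPKM, per-base coverage and 2 coding-potential scores for each transcript, per the file headers. Within a library, coverage over FPKM was the same for all transcripts, and this was read as aligned gigabases. Counts were not used here, so no counting interval is given.

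limma 3.58.1 (R 4.3.3), with a trended variance, tested log2(FPKM + 1) of rows that reached 1 FPKM in 4 or more of the libraries. For lncRNA transcripts both the pseudocount and the minimum were 0.1 FPKM. A pseudocount understates the change of low genes. Benjamini-Hochberg adjustment covered all tested rows. Rescaling divided each library by its median-of-ratios factor. Ratios were compared by a two-sided exact permutation test over 70 splits. Plots used matplotlib 3.10.9. The limma fit was tested on simulated data, which held no shift in composition between groups. Rescaling was tested on copies of a library scaled by known factors, and the permutation test on short sets of made-up values.

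The members, gene lists and marker lists were chosen with earlier results of these data known. Of the listed genes, those named have the lowest p under either scaling or the highest mean in their list. Promoters were matched by symbol for 9 of 10 members. Alternatives changed the pseudocount, filter, scaling, weights, design (replicate block or fat-marker covariate) and choice of rows, or left out a library.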

Additional observations from a re-analysis of the deposited data

Results flagged for a closer look

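Of 30 groups of 4 libraries examined for the members and their ratios, 2 (6.67%) had a single library standing apart; chance alone flags about 1 in 20 groups. Nitroglycerin replicate 4 had 10.0 FPKM of Itpr1 against 8.03 to 8.13 FPKM in the other nitroglycerin libraries. Nitroglycerin replicate 2 had a ratio of Kcnmb1 to the Kcnma1 row of the rule of 1.00 against 0.307 to 0.401 in the other nitroglycerin libraries, on the other side of the controls from those 3.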

How the results depend on the processing

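As deposited 175 genes were called over the table. Array weights gave 1936, a minimum of 1 FPKM in all 8 libraries 1178, annotated rows only 828, summed rows of a symbol 88, no filter 26, median-of-ratios scaling 17, quantile scaling 15, the fat-marker covariate 9, a pseudocount of 0.1 in place of 1 gave 7, equal library sums 3, and leaving out a library 5 (nitroglycerin replicate 4 or control replicate 4) to 284 (nitroglycerin replicate 2). Equal library sums put the median row at a log2 difference of 0.43 and quantile scaling at 0.013. As deposited 167 of the calls were higher and 8 lower, and after rescaling 4 and 13. Against 17 after rescaling, leaving out a library gave 1 to 31, a pseudocount of 0.1 gave 14 and factors from annotated rows 17. With the replicate number as a block, limma called 0 genes under either scaling (4037 and 1611 at an unadjusted p under 0.05). The labels name no batch, and the replicate number may be only a shared number. Deviations of same-numbered libraries correlated at 0.13, -0.011, -0.012 and 0.12. Nitroglycerin replicates 1 and 4 correlated most with the control of the same number, nitroglycerin replicate 2 with control replicate 1 and nitroglycerin replicate 3 with control replicate 4. These correlations cannot decide whether same-numbered libraries were handled together. No member was called in any of these fits except 1, Abcc9, with array weights. Settings with annotated rows only or the annotated Kcnma1 row, and 2 of those after rescaling, were chosen after seeing the data. Ryr2 changed sign in 6 of 19 alternatives as deposited, and Cacna1c, Itpr1 and Kcnma1 in 2 each. Of the ratios, Cacna1c to Kcnma1 changed sign in 4 of 12 alternatives, Abcc9 to Kcnj8 in 3 and Itpr1 to Ryr2 in 1, and none was called. No lncRNA transcript at a member gene was called under any alternative. With 4 libraries a group the 95% intervals are wide, with bounds as low as -1.10 (Ryr2 after rescaling) and as high as 1.40 (Pln as deposited) on the log2 scale.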
